A study of Angelica pubescens with 12 samples.

Results

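The unigenes described here are those whose level in Hubei roots lay outside the levels of the 3 other producing areas of Angelica pubescens, an umbellifer whose dried root is used in Chinese medicine. A unigene is a transcript contig of a de novo assembly; the identifiers carry the name of the Trinity assembler. A unigene was taken as above when every Hubei library exceeded all 9 other libraries in counts per 1000000 counts of the library (CPM) and the Hubei mean was at least 2-fold the highest other area mean, and as below in the mirror case. Its mean over the 12 libraries had to be 1 CPM or more, and viral and fungal matches were left out. Of 67432 unigenes in the table, 39122 met the level and annotation limits. Of these, 2981 were above (7.62%) and 2123 were below (5.43%), 5104 in all. Because these CPM values chose the unigenes, their Hubei values are descriptions and no test of Hubei against the other areas is read from them. For scale only, the edgeR quasi-likelihood test on the same libraries called 6686 of 60225 tested unigenes (11.1%) higher in Hubei than in each other area and 4706 (7.81%) lower.

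RNA-seq was made from the roots of plants 2 years old grown in Chongqing, Gansu, Hubei and Shanxi, with 3 libraries an area. The labels give no cultivar, genotype or treatment, and do not say whether the 3 libraries of an area came from separate plants, so the spread between them may be technical. Growing site, plant stock and day of harvest cannot be told apart from area in this design. The roots were bulk tissue, so fewer cells of a type and less RNA per cell cannot be told apart either.

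The libraries held 19920182 to 23319714 estimated counts, and no library was a copy of another. Unigenes of the root marker list summed to 24.6 to 28.2 CPM in Hubei and 19.997 to 34.9 CPM elsewhere, with 7 of 18 at a mean of 1 CPM or more. Leaf marker unigenes summed to 713 to 786 CPM in Hubei and 432 to 800 CPM elsewhere, and the 1 flower marker unigene stood at 0 to 0.0931 CPM in Hubei, at 0 in Chongqing and Gansu and at 1.45 to 2.03 CPM in Shanxi. Fungal unigenes, left out here, summed to 1755 to 1961 CPM in Hubei and 1873 to 5237 CPM in the others. Unigenes that matched cloning constructs summed to 31444 to 35096 CPM in Shanxi and to 378 to 776 CPM in the other 3 areas, and 1 of them was among the unigenes above. The part of these differences in the results was not tested.

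Umbellifer roots make coumarins and furanocoumarins from the phenylpropanoid pathway, which turns phenylalanine into cinnamic and coumaric acids and also supplies lignin. They store starch and proteins, and they answer wounding and microbes through jasmonate, a hormone made from fatty acids by lipoxygenases, and through pathogenesis-related proteins such as the small Bet v 1-type proteins of the celery and carrot allergens. Roots that thicken or elongate rebuild their walls with expansins, xyloglucan enzymes, extensins and pectin enzymes.

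Under the same rule Chongqing had 1650 unigenes above (4.22%) and 2375 below (6.07%). Gansu had 1463 above (3.74%) and 1708 below (4.37%), and Shanxi had 1965 above (5.02%) and 1743 below (4.46%). Hubei therefore had the most unigenes above and Chongqing the most below, each area being set against the other 3. The unigenes above took 135801 to 145837 CPM in Hubei, against 18715 to 19408 in Chongqing, 23352 to 25472 in Gansu and 33615 to 36365 in Shanxi. The unigenes below took 7533 to 7625 CPM in Hubei and 41973 to 64166 elsewhere.

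**Figure D1:**
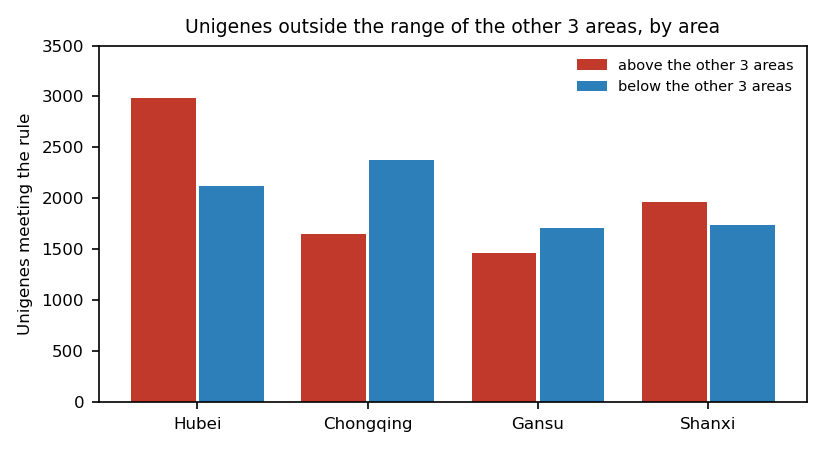
Number of unigenes (vertical axis) that lay above (red) or below (blue) the other 3 areas under the same rule, for each area. Hubei has 2981 above and 2123 below, and it is the area with the most above.

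Among the unigenes above, 1776 differed from the nearest area by 2-fold to under 4-fold, 700 by 4-fold to under 10-fold and 505 by 10-fold or more. Among those below the counts were 1123, 424 and 576. The median ratio to the nearest area was 3.36-fold above and 3.80-fold below. At the limit, the smallest ratio taken was 2.00073 above and 2.00042 below, and the largest ratios left out were 1.99997 and 1.99946. Another 231 unigenes above and 129 below lay between 1.9-fold and 2-fold. Shanxi was the nearest area for 1471 of the unigenes above, Chongqing for 777 and Gansu for 733. Chongqing was the farthest area for 1229 of them, Gansu for 1102 and Shanxi for 650. For the unigenes below, Shanxi was the nearest area for 864, Chongqing for 695 and Gansu for 564. The median coefficient of variation over the 3 Hubei libraries was 10.5% for the unigenes above. It was 20.4% for those below that averaged 1 CPM or more in Hubei. For the unigenes above it was 15.4% in Chongqing, 15.98% in Gansu and 14.6% in Shanxi. For those below it was 13.7%, 17.02% and 14.99% in the same order. Each area's value covers unigenes that averaged 1 CPM or more there. The rule chose unigenes by their 3 Hubei libraries, so the Hubei values do not show how close replicates lay in general.

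Among unigenes with a description, those above that drew the most Hubei reads coded for small defence proteins, oxidases and stress proteins. CPM is not per length, so these are shares of reads and not molar levels. A unigene matching Pathogenesis-related protein A (TRINITY_DN17288_c0_g1_i1_3), with a Bet v 1-type domain, stood at 11267, 10652 and 9461 CPM in Hubei, 564, 574 and 507 in Chongqing, 3385, 3837 and 3174 in Gansu and 5217, 4588 and 4934 in Shanxi. All 3 Hubei libraries were the highest, Shanxi and Gansu came next and Chongqing was the lowest, with no overlap between Hubei and any other area, and the Hubei mean was 2.13-fold that of Shanxi. The unigene of Major allergen Api g 1 (TRINITY_DN17384_c0_g1_i2_3), the celery member of the same protein family, stood at 4561, 4239.9 and 3762 CPM in Hubei, 414, 426 and 378 in Chongqing, 570.1, 631 and 544 in Gansu and 981, 829 and 883 in Shanxi. The 3 other areas kept to the same order as for the first gene, and Hubei was 4.66-fold the Shanxi mean. Of 13 unigenes whose description named a protein of this type, 10 were above and none was below, with Hubei means from 11.1 to 10460 CPM. Under the same rule no unigene of the type was above in Chongqing, in Gansu or in Shanxi. A unigene above in Hubei cannot be above in another area, so few of the 13 could have been. Of the 15 that edgeR tested, it called 11 higher in Hubei than in each other area and 2 lower. Over all tested unigenes the shares were 11.1% and 7.81%. The test used the same libraries and contrast as the rule, so these calls are no support for the type. The type was grouped after the values were seen, and closely alike copies may share reads. The whole list of pathogenesis-related proteins, chitinases and MLP-like proteins had 26 of 131 unigenes above (19.8%) and 7 below (5.34%) in Hubei. Of all unigenes 7.62% were above and 5.43% below, so the share below was near that of all. The list had 9 above in Chongqing, 10 in Gansu and 10 in Shanxi. Summed, it stood at 24106 to 28372 CPM in Hubei and 27697 to 32050 CPM in Gansu. Other pathogenesis-related types had smaller shares above than the Bet v I type: 4 of 18 chitinases, 6 of 44 glucan endo-1,3-beta-glucosidases and 4 of 24 thaumatins and osmotins. Below in Hubei were 0 chitinases, 3 glucan endo-1,3-beta-glucosidases and 3 thaumatins and osmotins. The thaumatins and osmotins also had 4 above in Gansu, 3 in Chongqing and 1 in Shanxi.

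Polyphenol oxidase, the plastid enzyme that browns cut tissue by oxidising phenols to quinones, had the third highest Hubei mean among the described unigenes above. Its unigene (TRINITY_DN14988_c0_g1_i1_2) stood at 4128, 3806 and 3502 CPM in Hubei, 23.96, 15.8 and 15.3 in Chongqing, 317, 351 and 309 in Gansu and 294, 261 and 274 in Shanxi. The Hubei libraries lay above all others, Gansu and Shanxi were close to each other and Chongqing was far lower, and Hubei was 11.7-fold the Gansu mean. The sum over the 3 unigenes with that description was 7.86-fold. Ratios of sums, here and below, are to the highest other area for a unigene above and to the lowest other area for a unigene below. That area is called the nearest also where the sum turns the direction, although another area may then lie closer to Hubei. A BURP domain protein (TRINITY_DN23001_c0_g2_i3_3), of a plant-specific wall and stress protein family, stood at 3363, 3140.3 and 2857 CPM in Hubei, 11.1, 6.71 and 5.63 in Chongqing, 6.14, 8.37 and 5.095 in Gansu and 898, 802 and 861 in Shanxi. Hubei and Shanxi shared high levels, Chongqing and Gansu were near the bottom, and Hubei was 3.66-fold Shanxi. For this unigene, Chongqing and Gansu did not pass the test against each other (edgeR, log2 difference 0.27, SE 0.23, adjusted p = 0.4), and both were below Shanxi.

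Berberine bridge enzyme-like 24 (TRINITY_DN20502_c0_g1_i2_2), a flavin-dependent oxidase, stood at 2195, 2038 and 1855 CPM in Hubei and 574 to 764 CPM in the 9 other libraries. Gansu and Shanxi overlapped each other, Chongqing lay below both, and Hubei was 2.92-fold the nearest, Gansu. A proteinase inhibitor whose Swiss-Prot match is Inhibitor of trypsin and hageman factor (TRINITY_DN20735_c0_g1_i3_3), a kind of protein that blocks the digestive enzymes of plant eaters, stood at 2133, 2046 and 1863 CPM in Hubei, 14.3, 9.93 and 10.6 in Chongqing, 203, 229 and 201 in Gansu and 83.3, 70.8 and 77.7 in Shanxi. Gansu was the nearest area at 9.53-fold, and Chongqing held the lowest values. Universal stress protein PHOS34 (TRINITY_DN20855_c0_g1_i6_2) stood at 1929 ± 209 CPM in Hubei and 306 ± 18.2 CPM in Shanxi (SD, n = 3), which is 6.31-fold, and summed over its 7 unigenes the ratio was 2.94-fold.

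Lipid transfer, polyamines and gluconeogenesis supplied the last of the 10. Non-specific lipid-transfer protein 2 (TRINITY_DN5138_c0_g1_i1_1), which carries lipids in the wall, stood at 1528 ± 168 CPM in Hubei against 756 ± 56.8 CPM in Shanxi, just past the 2-fold limit at 2.02-fold, and at 1.82-fold summed over its 5 unigenes. S-adenosylmethionine decarboxylase (TRINITY_DN20981_c0_g1_i2_4), which supplies the aminopropyl groups of polyamines, stood at 1384 ± 154 CPM and 638 ± 54.2 CPM in Shanxi, a ratio of 2.17, and of 1.49 summed over its 6 unigenes. Phosphoenolpyruvate carboxykinase (TRINITY_DN25037_c1_g1_i23_3), an enzyme of gluconeogenesis, stood at 1344 ± 68.95 CPM and 327 ± 7.72 CPM in Shanxi, a 4.11-fold difference, with Gansu the lowest area at 15.02 ± 1.66 CPM.

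**Figure D2:**
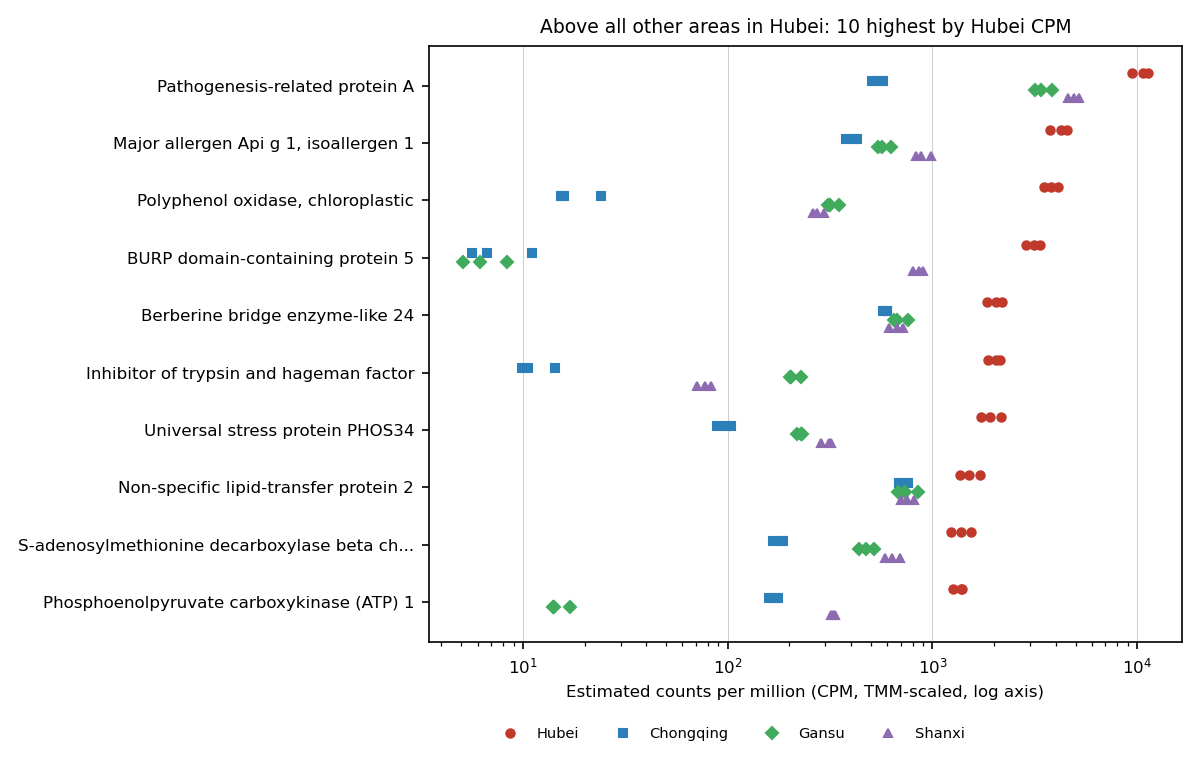
CPM (horizontal log axis) of the 10 described unigenes above with the highest Hubei mean, 1 point a library and 3 libraries an area. The Hubei points (red circles) lie to the right of every other point in all 10 rows, while the order of the other 3 areas changes from row to row.

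Some unigenes were present in Hubei and almost absent elsewhere. ABC transporter G family member 39 (TRINITY_DN23365_c4_g1_i4_3), of a family of membrane pumps, stood at 40.8, 39.2 and 38.03 CPM in Hubei, and the 9 other libraries held 2 counts in Chongqing, 1 in Gansu and 0 in Shanxi. The ratio of Hubei to Chongqing counts, scaled for library size, was 1373 (95% exact binomial interval 379.8 to 11345, counting error only). The unigene was chosen for its large ratio, and the interval does not cover that choice. The sum over the 6 unigenes with that description was only 1.11-fold the nearest area. Kiwellin-1 (TRINITY_DN7145_c0_g1_i1_3), a small cysteine-rich secreted protein, stood at 103, 108 and 112 CPM in Hubei and 0 to 0.514 CPM in the 9 other libraries. That is 418-fold the Chongqing mean, or 838-fold without the first Chongqing library. Linoleate 13S-lipoxygenase 2-1 (TRINITY_DN19578_c0_g1_i6_3), the plastid enzyme class that begins jasmonate synthesis, stood at 124, 106 and 97.7 CPM in Hubei and 0 to 0.507 CPM in the 9 other libraries. Hubei was 327-fold Gansu for this unigene and 3.75-fold summed over the 4 unigenes so described.

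For several of these the sums told of other unigenes of the same gene or protein. The germacrene D synthase unigene (TRINITY_DN15158_c0_g1_i1_2), a sesquiterpene cyclase, stood at 29.5, 26.4 and 26.1 CPM in Hubei and 0 to 0.0896 CPM in the 9 other libraries, yet its Trinity gene summed to only 1.31-fold the nearest area. ALA-interacting subunit 5 (TRINITY_DN22688_c0_g1_i4_2), a partner of lipid flippases, stood at 27.1, 29.2 and 30.8 CPM in Hubei and 0 to 0.205 CPM in the 9 other libraries, and its Trinity gene summed to 2.09-fold. The metal-nicotianamine transporter YSL7 unigene (TRINITY_DN2367_c0_g1_i1_2) stood at 72.5, 61.8 and 59.7 CPM in Hubei and 0.04405 to 0.616 CPM in the 9 other libraries, and its 3 unigenes summed to 1.25-fold. Endonuclease RE1 (TRINITY_DN23608_c0_g1_i9_2), a retrotransposon polyprotein, stood at 128, 125 and 126 CPM in Hubei and 0.04405 to 0.686 CPM in the 9 other libraries, while its 105 unigenes together came to 1.08-fold. The last of the set (TRINITY_DN16930_c0_g1_i2_2) matched a G-type lectin receptor kinase in Swiss-Prot and NUCLEAR FUSION DEFECTIVE 4 in NR, and stood at 46.9, 48.1 and 51.3 CPM in Hubei and 0 to 0.305 CPM in the 9 other libraries.

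Wall genes made up the list with the largest share above. Of 79 unigenes of the expansin, xyloglucan and extensin list, 32 were above (40.5%) and 5 below (6.33%), beside 7.62% and 5.43% of all unigenes. Under the same rule the list had 0 above in Chongqing, 3 in Gansu and 6 in Shanxi. For most of the lists described, the counts of the other areas under the same rule are given beside those of Hubei. The families inside a list were grouped after the values were seen. A unigene above in Hubei cannot be above in another area, which holds the other counts down. Shares count unigenes and not reads, so a large share above need not mean the highest summed CPM. The wall list summed to 7185 to 7546 CPM in Hubei and 3061 to 6266 CPM elsewhere. Within the list, 11 of 27 xyloglucan endotransglucosylase unigenes, which cut and rejoin the chains that tie cellulose, and 10 of 22 extensin unigenes were above, but 2 of 15 expansins were. Extensin-2 (TRINITY_DN19463_c0_g1_i11_2), a structural wall glycoprotein, stood at 869, 844 and 999 CPM in Hubei and 24.7 to 361 CPM in the 9 other libraries, a ratio of 2.71 to Shanxi, and of 1.85 summed over the unigenes of that name. Leucine-rich repeat extensin-like protein 5 (TRINITY_DN20459_c0_g1_i1_3) stood at 291, 296 and 349 CPM in Hubei and 6.82 to 57.99 CPM in the 9 other libraries, a ratio of 5.59, and of 2.89 for its Trinity gene. The list also held unigenes below: leucine-rich repeat extensin-like protein 6 (TRINITY_DN13726_c0_g1_i1_1) stood at 11.3 ± 1.804 CPM in Hubei against 36.5 ± 2.46 CPM in Shanxi, and Expansin-A15 (TRINITY_DN18920_c0_g4_i1_1) at 1.37 ± 0.359 CPM against 3.502 ± 0.538 CPM in Shanxi.

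The pectin and cellulose lists also had larger shares above than all unigenes. Of 166 pectin unigenes, 38 were above and 5 below, while Shanxi had 28 above, Gansu 4 and Chongqing 2. The whole pectin list summed to 4895 to 5312 CPM in Hubei and to more, 5627 to 5886 CPM, in Shanxi. Those above in Hubei included 11 of 36 pectinesterases, 7 of 28 galacturonosyltransferases, 6 of 21 pectate lyases and 3 of 6 pectin methyltransferases. In the same order, Shanxi had 5, 1, 4 and 0 above, and 1, 0, 0 and 0 were below in Hubei. Polygalacturonases, which cut pectin, had 6 of 43 above and 3 below in Hubei and 12 above in Shanxi. The QUA2 pectin methyltransferase unigene (TRINITY_DN18502_c0_g1_i2_3), which methylates new pectin, stood at 172 ± 5.495 CPM against 59.8 ± 1.62 CPM in Shanxi, and its Trinity gene summed to 1.98-fold. Of 106 unigenes of the cellulose, xylan and callose list, 22 were above and 4 below, against 3 above in Chongqing, 8 in Gansu and 7 in Shanxi. Those above included 6 of 16 catalytic subunits of cellulose synthase. Cellulose synthase A catalytic subunit 1 (TRINITY_DN23613_c0_g1_i17_2) stood at 534, 477 and 437 CPM in Hubei, 115, 121 and 103 in Chongqing, 57.5, 69.1 and 53.8 in Gansu and 168, 152 and 162 in Shanxi. Hubei lay above every other library, at 2.998-fold Shanxi, but its 6 unigenes summed to 1.94-fold, short of the rule. Catalytic subunit 2 (TRINITY_DN25130_c1_g2_i2_3) stood at 205 ± 18.02 CPM against 90.1 ± 7.996 CPM in Shanxi, 2.27-fold.

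Opposite directions inside 1 protein name were seen for the polygalacturonase inhibitor, a wall protein that blocks the pectin-cutting enzymes of fungi. A unigene above (TRINITY_DN25391_c0_g1_i1_2) stood at 211, 191 and 178 CPM in Hubei and 0.381 to 13.9 CPM in the 9 other libraries, whereas a unigene below (TRINITY_DN15989_c0_g1_i1_3) stood at 23.98, 21.8 and 19.5 CPM in Hubei and 56.2 to 348 CPM in the 9 other libraries. Summed over the 3 unigenes of the name, Hubei averaged 1084 CPM, Chongqing 112, Gansu 355 and Shanxi 1103. A pectinesterase unigene below (TRINITY_DN23772_c0_g1_i3_3) stood at 42.7 ± 7.43 CPM against 88.99 ± 9.92 CPM in Shanxi, and its Trinity gene summed to 1.08 times the lowest other area.

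Class III peroxidases, secreted enzymes that cross-link wall phenols, were above in 17 of 49 unigenes and below in none. The same list had 0 above in Chongqing, 6 in Gansu and 6 in Shanxi. Peroxidase N1 (TRINITY_DN21390_c0_g3_i1_2) stood at 351, 330.5 and 288 CPM in Hubei, 8.23, 6.27 and 4.36 in Chongqing, 87.9, 101 and 85.7 in Gansu and 134, 115 and 131 in Shanxi. Hubei was above all others at 2.55-fold Shanxi, and Chongqing was far below the rest. Peroxidase 12 (TRINITY_DN11983_c0_g1_i2_2) stood at 326 ± 35.6 CPM against 77.5 ± 5.18 CPM in Gansu, 4.203-fold. Fasciclin-like arabinogalactan proteins, wall proteins of thickening tissues, were above in 7 of 22 unigenes and below in none, against 1 above in Chongqing, 0 in Gansu and 1 in Shanxi. Number 17 of that family (TRINITY_DN23448_c2_g2_i2_2) stood at 121 ± 9.97 CPM against 24.6 ± 1.9004 CPM in Shanxi, and number 7 (TRINITY_DN24675_c0_g2_i1_3) at 89.04 ± 14.3 CPM against 18.7 ± 1.81 CPM in Shanxi.

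The phenylpropanoid route feeds both lignin and coumarins. Of 8 general phenylpropanoid unigenes, 2 were above and none below, and none was above in another area. 4-coumarate--CoA ligase 1 (TRINITY_DN22443_c1_g2_i2_2), which activates coumaric acid for all later branches, stood at 387, 359 and 323 CPM in Hubei, 57.9, 61.2 and 51.5 in Chongqing, 150.1, 181 and 146 in Gansu and 155, 137 and 149.6 in Shanxi. Its 3 Hubei libraries were the highest, at 2.24-fold Gansu. Of 81 lignin unigenes, 18 were above and 2 below, against 5 above in Chongqing, 4 in Gansu and 8 in Shanxi. Summed, the lignin list overlapped between areas, at 5312 to 6078 CPM in Hubei and 5866 to 6601 CPM in Shanxi. Shikimate O-hydroxycinnamoyltransferase (TRINITY_DN23979_c0_g1_i4_3), which links coumaric acid to shikimate, stood at 495, 459 and 410.3 CPM in Hubei and 24.95 to 142 CPM in the 9 other libraries, 3.64-fold Gansu and 2.39-fold summed over its 5 unigenes. The next enzyme, the hydroxylase cytochrome P450 98A2 (TRINITY_DN19773_c1_g2_i4_2), stood at 558, 511 and 457 CPM in Hubei and 7.71 to 190.0 CPM in the 9 other libraries. Cytochrome P450 84A1 (TRINITY_DN8705_c0_g1_i1_4), the ferulate 5-hydroxylase that leads to syringyl lignin, stood at 328, 308 and 271 CPM in Hubei and 9.45 to 28.8 CPM in the 9 other libraries, 11.3-fold the Shanxi mean. It was named from the cytochrome P450 list, which had 14 of 123 above (11.4%) and 9 below (7.32%) in Hubei. That list had 15 above in Gansu, 7 in Shanxi and 6 in Chongqing. The lignin list was not uniform: none of 8 laccases, which polymerise lignin, was above, and Laccase-16 (TRINITY_DN21613_c0_g2_i5_1) stood at 0.326, 0.357 and 0.256 CPM in Hubei and 13.4 to 42.8 CPM in the 9 other libraries.

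Coumarin and furanocoumarin unigenes went both ways, with 4 of 26 above and 4 below; Chongqing had 1 above, Gansu 4 and Shanxi 2. Bergaptol O-methyltransferase makes bergapten from bergaptol. A first unigene of that name (TRINITY_DN20534_c0_g1_i1_2) stood at 1071, 973 and 815 CPM in Hubei, 82.7, 72.6 and 72.8 in Chongqing, 178, 206 and 161 in Gansu and 9.95, 8.81 and 6.52 in Shanxi. Hubei was the highest, Gansu next and Shanxi the lowest, at 5.25-fold Gansu. A second unigene (TRINITY_DN22691_c1_g1_i14_3) stood at 47.5, 54.8 and 69.4 CPM in Hubei, 189.5, 217 and 188 in Chongqing, 351, 423 and 378 in Gansu and 1356, 1165 and 1242 in Shanxi. Here Shanxi was the highest and Hubei the lowest, and the nearest area, Chongqing, was 3.46-fold the Hubei mean. Over the 4 unigenes of the name the sums were 1573 CPM in Hubei, 523 in Chongqing, 1615 in Gansu and 2087 in Shanxi, so the name as a whole was highest in Shanxi. A unigene that matched psoralen synthase in Swiss-Prot and angelicin synthase in NR (TRINITY_DN22496_c0_g4_i1_2) stood at 98.6 ± 6.21 CPM against 46.1 ± 3.34 CPM in Shanxi. The 4 unigenes with that match summed to 251 CPM in Hubei, 244 in Shanxi, 58.3 in Chongqing and 1162 in Gansu. The Hubei sum was 0.216 times that of Gansu. A unigene whose NR match was umbelliferone dimethylallyl transferase (TRINITY_DN24348_c0_g1_i13_3), which adds the prenyl group of linear furanocoumarins, stood at 0.512, 0.401 and 2.13 CPM in Hubei and 6.44 to 90.2 CPM in the 9 other libraries. The nearest area, Chongqing, was 7.62-fold Hubei, or 16.9-fold without the third Hubei library. The 8 unigenes of the name summed to 408 CPM in Hubei, 200 in Chongqing, 760 in Gansu and 601 in Shanxi. The Hubei sum was 2.04 times that of Chongqing and below those of Gansu and Shanxi.

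Jasmonate synthesis and signalling had 17 of 65 unigenes above and 3 below, with 0 above in Chongqing, 2 in Gansu and 7 in Shanxi. The TIFY proteins, repressors of jasmonate responses whose genes jasmonate itself turns on, were above in 7 of 17 unigenes and below in none. Protein TIFY 10b (TRINITY_DN8955_c0_g1_i2_2) stood at 372, 351 and 308 CPM in Hubei, 62.8, 63.7 and 58.3 in Chongqing, 93.7, 101 and 92.6 in Gansu and 141, 118 and 122 in Shanxi, 2.71-fold Shanxi with no overlap. Protein TIFY 10A (TRINITY_DN24410_c1_g1_i3_4) stood at 159.8 ± 2.05 CPM against 68.9 ± 1.07 CPM in Shanxi. Lipoxygenases were above in 7 of 26 and below in 2, and Shanxi had 4 above, Gansu 1 and Chongqing 0. They include 9S-lipoxygenases, which were not set apart, so the 7 need not all belong to jasmonate synthesis. Allene oxide enzymes were above in 2 of 6 and below in none, and none was above in another area. The list also held unigenes below. The unigene of jasmonoyl-amino acid synthetase JAR4 (TRINITY_DN20526_c1_g2_i23_1), which makes the active hormone, stood at 40.4 ± 4.77 CPM in Hubei against 143 ± 9.31 CPM in Chongqing, and the 9S-lipoxygenase 5 unigene (TRINITY_DN19259_c0_g1_i1_1) at 0.0931, 0.0446 and 0.0427 CPM in Hubei and 5.05 to 31.8 CPM in the 9 other libraries. Summed over their 4 and 12 unigenes, these names were 1.34 and 3.11 times the nearest area.

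Defence receptors and calcium signalling had larger shares above than the 7.62% of all unigenes. Of 397 immune receptor unigenes of the NLR type, which sense microbial effectors inside cells, 62 were above (15.6%) and 22 below (5.54%), the second share being near the 5.43% of all unigenes. Under the same rule 36 of them were above in Shanxi, 19 in Chongqing and 14 in Gansu. The list of lectin, cysteine-rich and wall-associated kinases had 35 of 176 above (19.9%) and 10 below (5.68%), against 16 above in Chongqing, 9 in Gansu and 11 in Shanxi. Of 256 calcium signalling unigenes, 48 were above (18.75%) and 5 below (1.95%), against 7 above in Chongqing, 8 in Gansu and 17 in Shanxi. The whole calcium list summed to 10195 to 10813 CPM in Hubei and to more, 11375 to 11821 CPM, in Chongqing. Those above included 13 of 48 calcium-dependent kinases and 7 of 28 calmodulin-like proteins. Shanxi had 5 of these kinases and 2 calmodulin-like proteins above, Gansu 1 and 1, and Chongqing 0 and 0. Calcium-transporting ATPase 2 (TRINITY_DN21593_c1_g1_i6_3), a plasma membrane calcium pump, stood at 414, 377 and 356 CPM in Hubei and 34.02 to 52.5 CPM in the 9 other libraries. Its Hubei libraries were far above all others, at 7.59-fold the Shanxi mean. CBL-interacting kinase 6 (TRINITY_DN9396_c0_g1_i1_2) stood at 349 ± 31.8 CPM against 159.8 ± 7.76 CPM in Chongqing, with a sum over its name of 1.43-fold, and Disease resistance protein Pik-1 (TRINITY_DN22668_c0_g1_i7_2) at 162 ± 14.9 CPM against 36.98 ± 1.98 CPM in Gansu. Receptor kinase FERONIA (TRINITY_DN19784_c0_g2_i1_4), a wall-sensing kinase, stood at 129 ± 11.1 CPM against 63.2 ± 5.16 CPM in Shanxi, with a sum over its 5 unigenes of 1.88-fold. An Annexin-like protein RJ4 unigene (TRINITY_DN24350_c0_g2_i1_3) was the other way, at 5.53 ± 0.803 CPM against 12.4 ± 0.969 CPM in Shanxi. Of 81 unigenes for serine carboxypeptidase-like and BAHD acyltransferases, which decorate phenols and terpenes, 17 were above and none was below, and Shanxi also had 17 above, Gansu 1 and Chongqing 0. Of the 58 serine carboxypeptidase-like unigenes among them, 10 were above in Hubei and 14 in Shanxi. Serine carboxypeptidase-like 18 (TRINITY_DN24924_c1_g2_i18_3) stood at 519 ± 21.7 CPM against 181 ± 1.78 CPM in Shanxi. Terpene synthases were above in 6 of 30 and below in none, against 1 above in Chongqing, 2 in Gansu and 5 in Shanxi. Their summed CPM was 818 to 877 in Hubei and higher, 902 to 957, in Shanxi.

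Water and nutrient carriers were also among the unigenes above. The list of metal, sulfate, potassium and water transport had 33 of 235 unigenes above (14.04%) and 16 below (6.81%). It had 10 above in Chongqing, 8 in Gansu and 19 in Shanxi. Summed, the list stood at 19835 to 22380 CPM in Hubei and higher, at 25468 to 27673 CPM, in Chongqing. Aquaporins, the water channels of cell membranes, were above in 16 of 45 unigenes and below in 1. Shanxi had 3 aquaporins above, Gansu 1 and Chongqing 0. Without them the list had 17 of 190 above, 8.95%, near the 7.62% of all unigenes, and 15 below. Aquaporin PIP2-7 (TRINITY_DN14689_c0_g1_i2_3) stood at 469, 445 and 456 CPM in Hubei, 70.6, 64.98 and 68.1 in Chongqing, 9.69, 9.89 and 6.41 in Gansu and 106, 104 and 98.7 in Shanxi, with Gansu the lowest and Hubei 4.42-fold Shanxi. Aquaporin PIP1-4 (TRINITY_DN20438_c0_g4_i1_2) stood at 249 ± 21.9 CPM against 122 ± 10.4 CPM in Shanxi, and its 5 unigenes summed to 1.76-fold. The nitrogen list had 18 of 104 above and 8 below, against 15 above in Chongqing, 4 in Gansu and 4 in Shanxi. Protein NRT1/PTR FAMILY 3.1 (TRINITY_DN19498_c0_g2_i1_2), of a family of nitrate and peptide carriers, stood at 169 ± 5.38 CPM against 59.6 ± 1.24 CPM in Chongqing, with 1.93-fold for the sum of its name, and family member 4.5 (TRINITY_DN22333_c0_g1_i1_3) at 73.4 ± 11.5 CPM against 22.8 ± 3.45 CPM in Shanxi. Family member 8.1 (TRINITY_DN12215_c0_g2_i1_4) went the other way, at 0.838, 0.446 and 0.768 CPM in Hubei and 15.5 to 59.1 CPM in the 9 other libraries, and its 5 unigenes summed to 1.02 times the nearest area. The low affinity phosphate transporter (TRINITY_DN21999_c0_g2_i5_4) stood at 174, 175 and 158 CPM in Hubei, 1.41, 1.09 and 1.06 in Chongqing, 3.605, 4.51 and 3.04 in Gansu and 11.2, 11.9 and 13.7 in Shanxi, 13.8-fold the Shanxi mean. PHOSPHATE-INDUCED 1 (TRINITY_DN20313_c1_g2_i2_1), of the EXORDIUM family, stood at 443 ± 16.7 CPM against 81.4 ± 0.804 CPM in Shanxi. Purple acid phosphatase 20 (TRINITY_DN18903_c0_g1_i3_1), which frees phosphate from organic compounds, was lower in Hubei at 0.804 ± 0.131 CPM against 3.37 ± 0.4802 CPM in Shanxi. The phosphate list as a whole had 6 of 59 above and 6 below.

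Of 1394 transcription factor unigenes of all families, 125 were above (8.97%) and 72 below (5.16%), both near the shares of all unigenes. Basic helix-loop-helix factors had 20 of 89 above and 3 below in the description list, and WRKY factors, regulators of defence, 15 of 80 above and 4 below. Shanxi had 11 bHLH and 4 WRKY unigenes above, Gansu 5 and 6, and Chongqing 3 and 0. bHLH62 (TRINITY_DN18344_c0_g1_i5_2) stood at 92.2 ± 7.33 CPM against 26.4 ± 3.09 CPM in Shanxi, with a sum over its 6 unigenes of 1.04-fold, and bHLH144 (TRINITY_DN21820_c2_g1_i2_2) at 69.9 ± 1.5997 CPM against 27.6 ± 1.44 CPM in Shanxi. WRKY24 (TRINITY_DN20743_c0_g2_i1_2) stood at 80.4 ± 2.66 CPM against 37.7 ± 0.763 CPM in Gansu, and its Trinity gene summed to 1.93-fold. A WRKY40 unigene (TRINITY_DN20160_c0_g1_i2_4) stood at 132 ± 10.04 CPM against 58.4 ± 2.55 CPM in Shanxi, whereas its Trinity gene summed to 0.537 times the nearest area. MYB73 (TRINITY_DN14776_c0_g1_i1_2) stood at 176 ± 13.2 CPM against 75.98 ± 2.76 CPM in Chongqing, with 1.68-fold for the sum of its name, and ERF115 (TRINITY_DN22496_c0_g1_i1_2), an ethylene response factor of wounded roots in Arabidopsis, at 104 ± 5.799 CPM against 16.2 ± 1.16 CPM in Shanxi, its Trinity gene summing to 3.27-fold. RAP2-1 (TRINITY_DN18864_c0_g1_i2_4), of the same family, was lower in Hubei, at 22.4 ± 1.74 CPM against 88.3 ± 4.35 CPM in Shanxi. The gene for abscisic acid 8'-hydroxylase CYP707A2 (TRINITY_DN23249_c0_g1_i7_3), which breaks down that hormone, stood at 175 ± 2.02 CPM against 32.98 ± 1.498 CPM in Shanxi. The abscisic acid list had 2 of 47 above (4.26%) and 3 below (6.38%), beside 7.62% and 5.43% of all unigenes. It had more above in Gansu, 7, and in Shanxi, 4, and 1 in Chongqing.

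Among unigenes with a description, those below that drew the most reads in the other areas coded for stress, wall and metabolic proteins. Cold-regulated 413 plasma membrane protein 1 (TRINITY_DN25188_c1_g2_i6_3), named for its response to cold, stood at 242, 189 and 177 CPM in Hubei, 954, 957 and 827 in Chongqing, 579.8, 716 and 586 in Gansu and 1041, 922 and 989.9 in Shanxi. The Hubei libraries were the 3 lowest, and the nearest area, Gansu, was 3.098-fold the Hubei mean. The dehydrin, LEA and cold list it belongs to had 12 of 66 above and 7 below, against 4 above in Chongqing, 7 in Gansu and 2 in Shanxi. Summed, the list was lowest in Hubei, at 2614 to 2853 CPM. It stood at 3745 to 4143 CPM in Shanxi, 7149 to 7779 in Chongqing and 8547 to 9469 in Gansu. A glycine-rich wall structural protein (TRINITY_DN4981_c0_g1_i1_1) stood at 64.4, 57.9 and 52.9 CPM in Hubei, 1186, 1216 and 1092 in Chongqing, 1817, 2074 and 1688 in Gansu and 603, 475 and 547 in Shanxi. Gansu was the highest and Shanxi the nearest area, at 9.28-fold the Hubei mean. Metallothionein-like protein 2 (TRINITY_DN12142_c0_g1_i1_4), a small metal-binding protein, stood at 173, 155 and 143 CPM in Hubei, 2788, 3000.4 and 2608 in Chongqing, 825, 955 and 748 in Gansu and 437, 353 and 409 in Shanxi, falling from Chongqing through Gansu and Shanxi to Hubei without overlap.

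Alcohol dehydrogenase 2 (TRINITY_DN24240_c0_g2_i19_4), an enzyme of fermentation, stood at 179 ± 8.83 CPM against 366 ± 34.5 CPM in Gansu, and its 5 unigenes summed to 0.548 of the nearest area. Osmotin-like protein OSML13 (TRINITY_DN19783_c0_g1_i2_1), an antifungal protein of the thaumatin family, stood at 31.2, 36.4 and 25.7 CPM in Hubei, 307, 302 and 264 in Chongqing, 1331, 1526 and 1339 in Gansu and 524, 431 and 490.4 in Shanxi. Gansu was the highest area, Chongqing the nearest to Hubei at 9.35-fold, and the Trinity gene summed to 0.638 of its nearest area. Cysteine proteinase inhibitor 6 (TRINITY_DN21942_c0_g1_i3_4), which blocks papain-type proteases, the membrane translocator protein (TRINITY_DN20311_c0_g1_i2_1) and the putative methyltransferase DDB_G0268948 (TRINITY_DN20285_c0_g1_i1_4) had Hubei means of 73.03 ± 3.72 CPM, 14.7 ± 2.25 CPM and 109 ± 2.88 CPM. Their nearest areas stood at 248 ± 22.4 CPM in Shanxi, 247 ± 16.6 CPM in Gansu and 281 ± 8.23 CPM in Chongqing. Summed over their names, the first came to 0.776 and the second to 0.187 of the nearest area. Methionine synthase (TRINITY_DN21848_c0_g1_i5_1) stood at 23.2 ± 6.66 CPM against 286 ± 21.6 CPM in Gansu, but the 12 unigenes of that name summed to 1.62 times the nearest area. The translation factor eIF4A-2 (TRINITY_DN22719_c1_g2_i3_1) stood at 102 ± 9.99 CPM against 225 ± 11.5 CPM in Chongqing, and its 7 unigenes summed to 1.17 times.

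**Figure D3:**
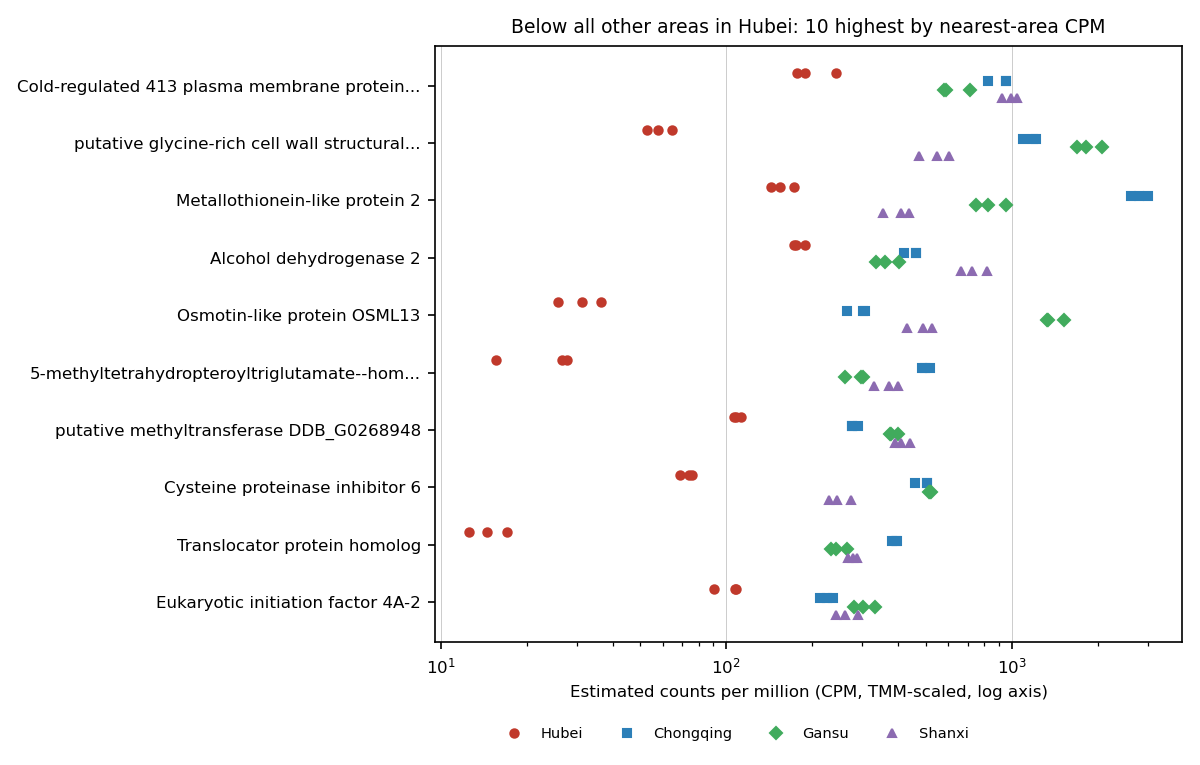
CPM (horizontal log axis) of the 10 described unigenes below with the highest nearest-area mean, 1 point a library and 3 libraries an area. The Hubei points (red circles) lie to the left of every other point in all 10 rows.

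Other unigenes were near absent from Hubei alone. The STIP1-like unigene (TRINITY_DN18115_c0_g1_i2_4), of a spliceosome disassembly factor, had 4 counts in Hubei, all in the second library, against 20.8 ± 4.64 CPM in the nearest area, Shanxi, and the 4 unigenes of the name summed to 1.24 times the nearest area. Spastin (TRINITY_DN21720_c0_g3_i1_2), a microtubule-severing enzyme, stood at 0.0931, 0.0892 and 0.0854 CPM in Hubei and 25.1 to 36.2 CPM in the 9 other libraries. Beta-galactosidase 17 (TRINITY_DN23132_c1_g2_i7_1) stood at 0.233, 0.178 and 0.0427 CPM in Hubei and 28.5 to 88.03 CPM in the 9 other libraries, and its Trinity gene summed to 0.689 of the nearest area. DYAD (TRINITY_DN23171_c3_g1_i22_1), a regulator of meiosis in Arabidopsis, stood at 0.148 ± 0.0199 CPM against 24.5 ± 4.302 CPM in Gansu, and its 9 unigenes summed to 0.671 of the nearest area.

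For 4 more, other unigenes of the same name were present in Hubei. Fibrillarin 1 (TRINITY_DN22960_c2_g3_i7_1), a methyltransferase of ribosomal RNA, stood at 0.643 ± 0.188 CPM against 44.3 ± 5.54 CPM in Shanxi, and its 28 unigenes summed to 0.985 of the nearest area. A unigene that matched 60S ribosomal protein L24 in Swiss-Prot and an RNA-binding domain protein in NR (TRINITY_DN23354_c0_g5_i15_4) stood at 0.514 ± 0.263 CPM against 26.4 ± 1.22 CPM in Shanxi, and its 3 unigenes summed to 0.68995. The 2 zinc finger proteins of the set, ZMYM1 (TRINITY_DN22927_c1_g1_i11_1) and the transposase-derived RICESLEEPER 2 (TRINITY_DN21711_c1_g1_i7_1), stood at 0.847 ± 0.498 CPM and 0.6801 ± 0.283 CPM in Hubei, and their names summed to 0.764 and 0.944 of the nearest area.

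Transposable elements, mobile DNA, and heat shock proteins, the chaperones of heat stress, had larger shares below than the 5.43% of all unigenes. So did the coumarin (15.4%), dehydrin (10.6%) and phosphate (10.2%) lists. These lists also passed the 7.62% of all unigenes above, at 15.4%, 18.2% and 10.2%. Further lists passed both shares, among them UDP-glycosyltransferases (9.46% below, 10.8% above) and nitrogen (7.69% below, 17.3% above). Of 184 transposable element unigenes, 10 were above and 22 below (11.96%), and Chongqing had 17 below, Gansu 7 and Shanxi 18. An AC9 transposase unigene (TRINITY_DN22651_c0_g1_i18_4) stood at 28.3 ± 3.41 CPM against 61.7 ± 5.64 CPM in Gansu, its Trinity gene summing to 0.552 of the nearest area, and a Ty3/gypsy unigene (TRINITY_DN24098_c1_g1_i3_4) at 10.7 ± 3.05 CPM against 23.7 ± 1.49 CPM in Shanxi, with a sum over its 16 unigenes of 1.22 times the nearest area. Of 118 heat shock unigenes, 6 were above and 11 below (9.32%), and Chongqing had 5 below, Gansu 3 and Shanxi 6. Heat shock protein 83 (TRINITY_DN21521_c0_g1_i2_3), a chaperone of the HSP90 type, stood at 14.4 ± 0.931 CPM against 38.4 ± 3.22 CPM in Shanxi, and its Trinity gene summed to 0.723 of the nearest area. Starch and sucrose had 5 of 115 above and 7 below (6.09%), near the share of all unigenes. Sucrose synthase 4 (TRINITY_DN22278_c4_g2_i1_1), which splits sucrose, stood at 3.54, 4.28 and 3.84 CPM in Hubei and 18.2 to 89.2 CPM in the 9 other libraries, and inactive beta-amylase 9 (TRINITY_DN21189_c0_g1_i1_1) at 30.6 ± 4.72 CPM against 92.8 ± 5.74 CPM in Shanxi, its Trinity gene summing to 0.583 of the nearest area. The sugar carrier SWEET7 unigene (TRINITY_DN16519_c0_g1_i1_3) stood at 0.186, 0.357 and 0.128 CPM in Hubei and 5.197 to 43.2 CPM in the 9 other libraries, yet its Trinity gene summed to 1.61 times the nearest area. A Rubisco small chain unigene (TRINITY_DN20048_c0_g1_i1_4), of the carbon-fixing enzyme of leaves, stood at 1.96, 0.5797 and 1.79 CPM in Hubei, 22.03, 19.2 and 20.8 in Chongqing, 94.4, 99.1 and 87.97 in Gansu and 265, 239.7 and 245 in Shanxi, with Shanxi the highest, and its Trinity gene summed to 0.629 of the nearest area. Here leaf marker unigenes as a group were not lowest in Hubei, as given above, and of the 45 with a mean of 1 CPM or more 6 were above and 2 below; their part in this value was not tested.

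**Figure D4:**
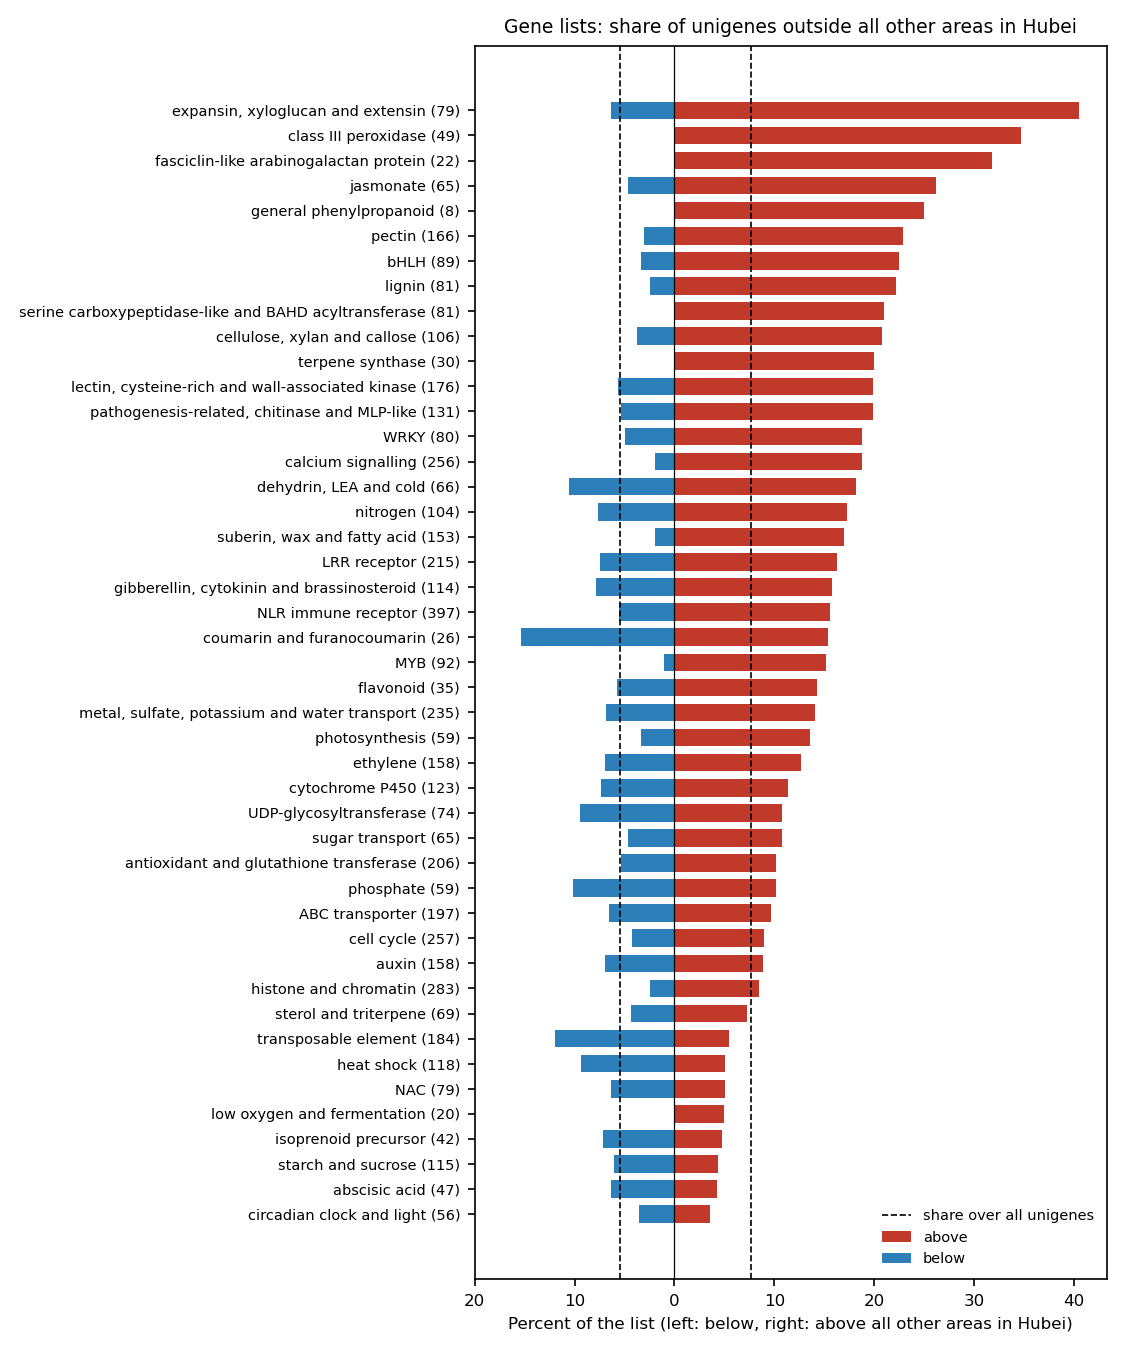
Percent of the unigenes of each of 45 gene lists that were above (red, right) or below (blue, left) all other areas in Hubei, with the number of unigenes of the list in brackets. Dashed lines mark the shares over all unigenes, 7.62% above and 5.43% below; the wall list reaches 40.5% above and the circadian clock list 3.57%.

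Many unigenes are isoforms or alleles of 1 gene, and reads may have been split between near copies, so sums were set beside the unigenes. The Trinity gene sum met the rule for 71.8% of the unigenes above and 69.1% of those below. Where the Trinity gene had another unigene of 1 CPM or more, the share was 31.0% above and 20.2% below, against 95.6% and 93.1% where it had none. In 83 Trinity genes a unigene above and a unigene below stood together. Summed over the protein description, the rule was met for 48.4% of the described unigenes above and 33.5% of those below. A description was found for 79.0% of the unigenes above, 66.3% of those below and 75.2% of all.

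**Figure D5:**
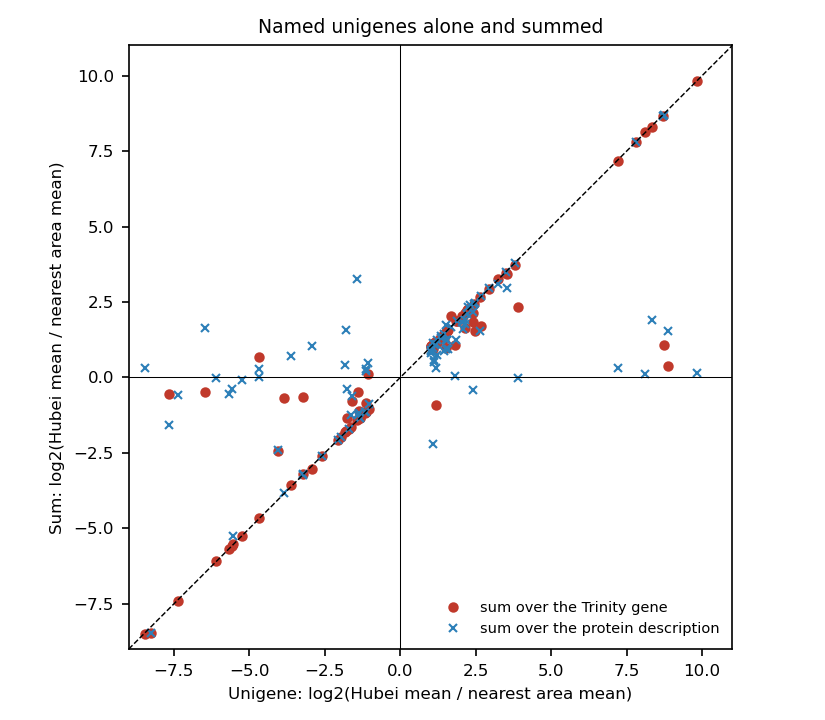
Log2 ratio of the Hubei mean to the nearest other area mean for each named unigene (horizontal) against the same ratio for the sum over its Trinity gene (red) or over its protein description (blue), with the line of equality dashed. Most red points lie on the line, while many blue points move toward 0 or across it; an area with no count stands at a floor of 3 counts.

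The other areas were compared with each other by edgeR's quasi-likelihood test with Benjamini-Hochberg adjustment, on contrasts that the rule did not use. Of the unigenes above, 1483 (49.7%) differed between Chongqing and Gansu, 1682 (56.4%) between Chongqing and Shanxi and 1624 (54.5%) between Gansu and Shanxi. Of the unigenes below, 929 (43.8%), 1095 (51.6%) and 1001 (47.2%) did in the same order. Over all 60225 tested unigenes the shares were 38.8%, 47.9% and 44.3%. Those included unigenes under the mean of 1 CPM that the rule asked for, where fewer counts make a call harder. The shares are therefore not like for like, and the difference between them is not read as a result. Polyphenol oxidase was lower in Chongqing than in Gansu (edgeR, log2 difference -4.15, SE 0.15, adjusted p = 2e-10), with all 3 Chongqing libraries under all 3 of Gansu. For the same unigene Gansu and Shanxi did not pass the test against each other (edgeR, log2 difference 0.24, SE 0.13, adjusted p = 0.15). The berberine bridge enzyme-like 24 unigene was lower in Chongqing than in Gansu (edgeR, log2 difference -0.23, SE 0.08, adjusted p = 0.035) and did not pass the test between Chongqing and Shanxi (edgeR, log2 difference -0.18, SE 0.08, adjusted p = 0.091). Metallothionein-like protein 2 was higher in Chongqing than in Shanxi (edgeR, log2 difference 2.81, SE 0.11, adjusted p = 2.7e-10).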

How the data were processed

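Total RNA from Angelica pubescens roots was sequenced in 12 libraries, 3 an area. Per the authors' deposited tables, values are estimated counts and FPKM (fragments scaled by transcript length and library size) for each unigene of 1 assembly. The submitters' processing notes name FastQC, Trimmomatic, Bowtie2, featureCounts, RSEM and DESeq2; no source used here gives their versions, their roles, the assembly settings, the strand setting or how near-identical unigenes shared reads. Sequences were not used here.

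Whole-number roundings of the deposited estimated counts entered edgeR 4.0.16 (R 4.3.3) and were scaled by TMM factors (0.941 to 1.05) to CPM. The quasi-likelihood test was fitted on 60756 unigenes kept by filterByExpr over all 12 libraries, with the area as the only term; 60225 remained after fungal and viral matches were removed. Adjusted p-values are Benjamini-Hochberg over all tested unigenes, with a threshold of 0.05. Called higher or lower means past that threshold against each of the 3 other areas. Deposited FPKM values, DESeq2 1.42.0, limma 3.58.1 and other filters and scalings served as alternatives.

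Descriptions come from the deposited Swiss-Prot matches, or NR matches where the former was fungal or absent. Members and the 45 gene lists, matched on description words, were chosen with earlier results of these data known. The text names, with 1 unigene a description, the 10 unigenes above with the highest Hubei CPM, the 8 with the largest ratio at 20 CPM or more, and the same below by the nearest area's CPM. From the lists, some of which it does not otherwise describe, it names some of the 2 with the highest mean CPM in each direction. Which were left out, for length, was decided with their values seen. Smaller protein families inside lists were grouped after the values were seen. Counting intervals cover counting error only.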

Additional observations from a re-analysis of the deposited data

How the results depend on the processing

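The counts of unigenes outside the other areas depend on the limits. Of the 2981 above and 2123 below, a mean of 5 CPM or more left 1396 and 1012, a 3-fold limit 1705 and 1339, no fold limit gave 6796 and 4325, and sums per protein description gave 1591 and 1177. With no minimum level 5302 were above. Leaving out 1 library gave 2810 to 3067 above and 2081 to 2567 below. Library totals, RLE factors, FPKM, sums per Trinity gene and leaving out fungal Swiss-Prot matches kept both counts within 1.5 times. The edgeR calls, 6686 higher and 4706 lower on the contrast the rule used, fell to 3989 and 2918 with a 2-fold limit, and lay at 5841 to 6930 and 4215 to 4719 without 1 library. The replicate numbers did not pair the samples (correlations of deviations -0.0895 to 0.0795; 3 of 12 libraries correlated best with their own number), and the replicate block gave 6345 and 4451. The differences among the other areas in the named unigenes kept their counts within 1.5 times in every setting run.

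For 92 named unigenes, no direction changed with the scaling, FPKM or 1 library left out. The rule had chosen them with every Hubei library outside all 9 others, so leaving out 1 library could not turn a direction. It also asked for a 2-fold gap, which a change of scaling could hardly undo. The unchanged directions are therefore no check of the results. Sums over the Trinity gene turned the log2 ratio to 0.68 for SWEET7, 0.11 for pectinesterase and -0.90 for WRKY40. Sums over the protein description turned it to 0.70 for methionine synthase, 0.23 for eIF4A-2, 0.31 for STIP1-like, -0.41 and 1.59 for the bergaptol methyltransferases, -2.21 for psoralen synthase, 1.03 for the umbelliferone dimethylallyl transferase, 0.29 for SWEET7, -0.0255 and 3.27 for the polygalacturonase inhibitors, 0.49 for pectinesterase, 0.29 for Ty3/gypsy, 0.42 for JAR4, 1.64 for 9S-lipoxygenase 5 and 0.0281 for NRT1/PTR 8.1. A sum holds other unigenes by its construction. Unigenes with few counts in 1 area have ratios limited by depth.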

Other observations

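Some of the unigenes with the most reads had no informative description and are given as values. The unigene TRINITY_DN22233_c0_g1_i2_4, with no match, stood at 119, 105 and 98.1 CPM in Hubei, 7759, 7946 and 7882 in Chongqing, 9884, 10821 and 9846 in Gansu and 1629.7, 1484 and 1552 in Shanxi. The 3 Hubei libraries were the lowest and the Gansu libraries the highest. Unigene TRINITY_DN15109_c0_g2_i1_1, a hypothetical protein in NR, stood at 2191, 2038 and 1762 CPM in Hubei, 30.9, 23.1 and 22.1 in Chongqing, 55.3, 67.2 and 58.7 in Gansu and 353, 299.8 and 320.5 in Shanxi, with Hubei the highest. Unigene TRINITY_DN28601_c0_g1_i1_3, also matched to a hypothetical protein, stood at 553, 500.5 and 546 CPM in Hubei, 2.49, 0.915 and 0.805 in Chongqing, 0.731, 1.37 and 0.452 in Gansu and 0.448, 0.508 and 0.132 in Shanxi, with almost no reads outside Hubei. Unigene TRINITY_DN24533_c2_g2_i1_3, with no match, stood at 37.2, 24.04 and 23.8 CPM in Hubei, 443, 419 and 419.8 in Chongqing, 309, 333 and 322 in Gansu and 1073, 1052 and 1085 in Shanxi. Here Shanxi was the highest area and Hubei the lowest, with no overlap.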
